A study of Mus musculus with 4 samples.

Results

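The genes described here are 10 transcriptional targets of Wnt signalling that mark the pericentral zone of the liver lobule, taken by symbol from a list: Axin2, Lgr5, Tbx3, Nkd1, Notum, Sp5, Znrf3, Rnf43, Glul and Rhbg. All 10 had a row among the 24063 gene symbols measured, and where a symbol had several transcript rows the one with the most reads on average stood for the gene. They were measured in poly-A RNA of 4 mouse tumours labelled MYC;PMEPA1 overexpression in the strain that the titles give as C57BL6/J and the strain field as C57BL/6, with the replicate numbers 1, 5, 9 and 10. Both genes were introduced hydrodynamically through the tail vein, a route by which plasmid DNA reaches hepatocytes above all. MYC drives cell growth and division as a transcription factor, and PMEPA1, a membrane protein, restrains TGF-beta signalling. All 4 libraries carry both genes, so there is 1 group with no control, and all comparisons are between single tumours. The tissue is given as tumour, but the labels also mention passages, a term of cell culture, so whether the RNA came from tumour tissue or from cultured tumour cells is not known here, and the samples are called tumours as labelled. The labels name neither the animal behind each tumour nor its age. The p-values therefore measure the spread between these samples, which may be technical.

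Wnt ligands bind Frizzled and LRP receptors on the cell surface and stop the destruction of beta-catenin, which then enters the nucleus and activates genes together with TCF and LEF factors. In the normal liver, endothelial cells of the central vein and of the neighbouring sinusoids release Wnt ligands and R-spondins, and the hepatocytes next to them express glutamine synthetase and other pericentral genes. Many Wnt targets are themselves brakes or boosters of the pathway: Axin2, Nkd1, Notum, Znrf3 and Rnf43 restrain it, and Lgr5 strengthens it. In human and mouse liver tumours, activating mutations of the beta-catenin gene are known to raise glutamine synthetase, Lgr5, Axin2 and Tbx3.

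The sequences just upstream of 3 of the genes are shown because Sp5 and Axin2 are textbook direct targets of TCF factors and Glul is the classical pericentral enzyme, and because these genes were all highest in the same tumour. RefSeq (GRCm38.p6) gave promoters for 5 of the 10 genes (Axin2, Nkd1, Sp5, Rnf43 and Glul). The 250 bases before the annotated start are printed 5′ to 3′, all on the plus strand, with TCF/LEF motifs in capitals. The motif was searched on both strands in 4 forms. The first form was CTTTGAA. Another was CTTTGAT. A further form was CTTTGTT. The last was CTTTGTA.
Sp5 (chr2:70474673-70474922): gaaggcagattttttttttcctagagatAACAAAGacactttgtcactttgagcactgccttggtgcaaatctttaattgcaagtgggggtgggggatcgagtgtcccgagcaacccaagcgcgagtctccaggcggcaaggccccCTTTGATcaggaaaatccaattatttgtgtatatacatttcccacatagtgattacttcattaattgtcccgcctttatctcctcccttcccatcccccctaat
Axin2 (chr11:108920099-108920348): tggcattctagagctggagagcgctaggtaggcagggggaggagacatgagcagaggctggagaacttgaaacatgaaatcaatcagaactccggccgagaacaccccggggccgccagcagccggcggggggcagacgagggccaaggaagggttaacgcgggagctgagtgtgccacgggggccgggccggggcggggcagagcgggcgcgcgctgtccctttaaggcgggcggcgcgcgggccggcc
Glul (chr1:153899679-153899928): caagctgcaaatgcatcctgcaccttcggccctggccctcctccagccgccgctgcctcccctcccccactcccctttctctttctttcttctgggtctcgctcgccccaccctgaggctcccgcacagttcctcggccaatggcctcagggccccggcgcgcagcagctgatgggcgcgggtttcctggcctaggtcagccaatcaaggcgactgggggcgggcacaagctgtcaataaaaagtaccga
The Sp5 window held 2 matches, 1 on the minus strand beginning 222 bases before the start and 1 on the plus strand beginning 104 bases before it, and they do not overlap. The windows of Axin2, Glul and Nkd1 and both windows of Rnf43 held none. Of all 32851 promoter windows of this length, 14.8% held at least 1 match and 1.43% held 2 or more. A match is a run of letters and not a shown binding site, and distant enhancers lie outside these windows.

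Total counts over genes were between 41547938 and 51939623 per library, and 3 counts corresponded to 0.0524 to 0.0892 CPM (counts scaled to a common library size, on library sizes scaled by edgeR's TMM method). Intervals and such floors cover counting error only. Hepatocyte markers were abundant in all tumours, with albumin (Alb) at 13400 CPM in tumour 10 and 4520 to 5594 CPM in the others, so the libraries hold liver-type RNA. In such bulk samples, fewer cells of a type and less RNA per cell cannot be told apart. The mouse rows of the delivered genes had 4.86 to 8.58 CPM for Myc and 0.922 to 7.28 CPM for Pmepa1, and they do not show how much of the delivered sequence was read.

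Most of the Wnt targets were highest in tumour 1, and 6 of the 10 had their lowest level in tumour 10. Of the 10 genes, 9 had their highest CPM in tumour 1, where 22.3% of all 19162 genes with any count were highest. Tbx3 was the exception, with the same level in tumours 1 and 5. In tumour 10, 6 of the 10 genes had their lowest level, against 30.4% of all genes with any count. Among these 6, Znrf3, Rnf43 and Glul were lowest there beyond counting error. Tumour 10 could not be separated from tumour 5 for Axin2 and Nkd1, nor from tumour 9 for Lgr5. The median deviation of the 10 genes from their own 4-tumour mean of log2 CPM was 1.5 in tumour 1, -0.15 in tumour 5, -0.10 in tumour 9 and -1.14 in tumour 10. Over all expressed genes, those with a mean of at least 1 CPM, the median deviation lay between -0.04 in tumour 9 and 0.02 in tumour 10. The levels were low for most members: 9 of them reached 1 CPM in tumour 1, and 3 did so in each of tumours 5, 9 and 10. The 8 members other than Glul and Znrf3 summed to 15.7 CPM in tumour 1, 6.70 in tumour 5, 3.61 in tumour 9 and 2.79 in tumour 10.

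**Figure D1:**
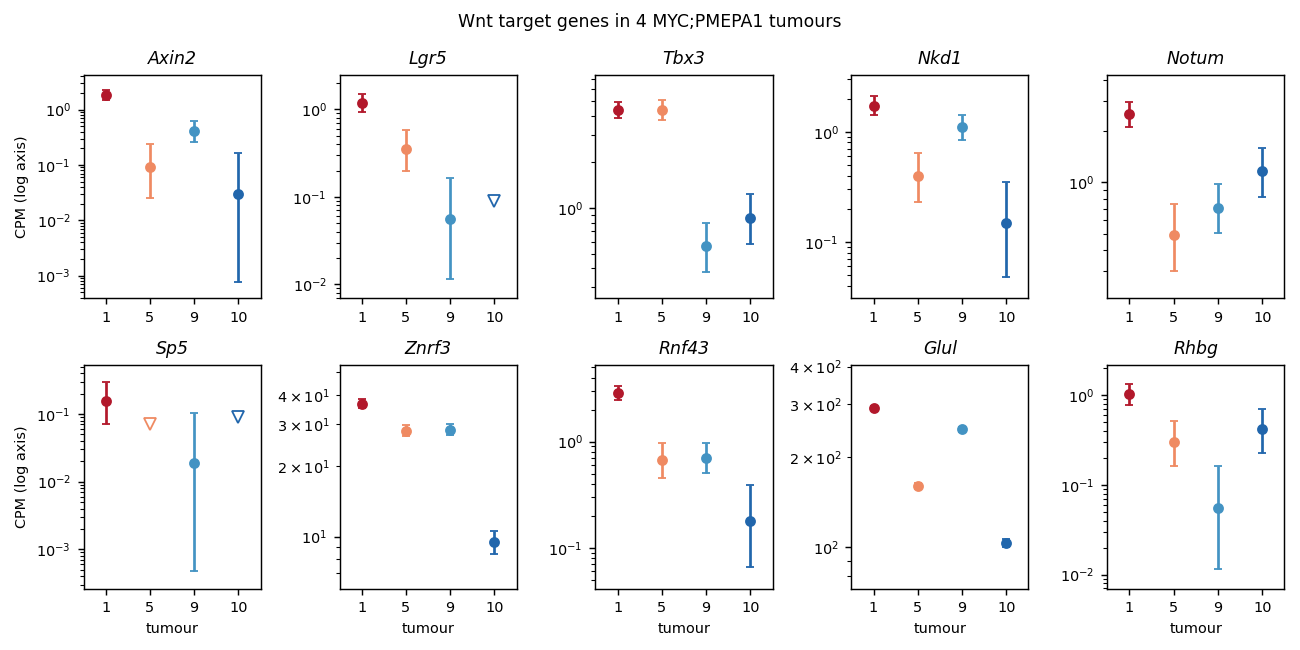
Levels of the 10 Wnt targets in CPM (log axis, own range in each panel) in tumours 1, 5, 9 and 10. Points are single libraries, bars are exact Poisson 95% intervals, and open triangles mark the level of 3 counts where no read was counted; tumour 1 is the highest for 9 of 10 genes, and Tbx3 is equal in tumours 1 and 5.

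Per length of transcript, the genes fell into 3 tiers. Glul was far the highest, with a mean of 71.5 ± 30.1 CPM per kilobase (SD, n = 4), above 90.0% of expressed genes. Znrf3 followed at 3.57 ± 1.60 CPM per kilobase, at percentile 27.7. In every tumour Glul lay above Znrf3, and Znrf3 above all the others. The next were Notum at 0.601 ± 0.446 and Tbx3 at 0.549 ± 0.458 CPM per kilobase (SD, n = 4 each), whose ranges overlapped. Rnf43 at 0.257, Rhbg at 0.236, Nkd1 at 0.195, Axin2 at 0.139, Lgr5 at 0.0846 and Sp5 at 0.0210 CPM per kilobase completed the order, and the ranges of each neighbouring pair overlapped over the tumours.

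Axin2, a scaffold of the complex that destroys beta-catenin and a general readout of Wnt signalling (NM_015732, GRCm38 chromosome 11, 108920349 to 108950783, plus strand), varied most of the intracellular brakes. It had 1.83 CPM in tumour 1, 0.0934 in tumour 5, 0.409 in tumour 9 and 0.0297 in tumour 10, from 105, 4, 22 and 1 counts. Tumour 1 stood above each other tumour beyond counting error: the ratio was 19.6 to tumour 5 (95% interval 7.45 to 73.4) and 4.48 to tumour 9 (2.81 to 7.45). Against the single count of tumour 10 the ratio was 61.7, with an interval of 10.8 to 2460. Tumours 5 and 10 could not be separated, at a ratio of 3.14 (0.311 to 155) of tumour 5 to tumour 10.

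Nkd1, which binds Dishevelled and dampens the signal (NM_027280, chromosome 8, 88521354 to 88594884, plus strand), kept the same order of tumours as Axin2 over a narrower range. It had 1.73 CPM in tumour 1, 0.397 in tumour 5, 1.10 in tumour 9 and 0.149 in tumour 10, from 99, 17, 59 and 5 counts. Tumour 1 exceeded tumour 9 by a ratio of 1.58 (1.13 to 2.21) and tumour 10 by a ratio of 11.6 (4.82 to 36.6). The ratio of tumour 5 to tumour 10 was 2.67, and its interval of 0.946 to 9.26 included 1.

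Znrf3 and Rnf43 are related membrane ubiquitin ligases that remove Frizzled receptors from the cell surface and are held back by R-spondins. Znrf3 (NM_001290501, chromosome 11, 5276324 to 5444847, minus strand) had 36.7 CPM in tumour 1, 28.2 in tumour 5, 28.5 in tumour 9 and 9.46 in tumour 10, a mean of 25.7 ± 11.5 CPM (SD, n = 4). Tumour 10 stood apart on the low side, and tumours 5 and 9 did not differ beyond counting error (ratio 0.990, interval 0.918 to 1.07). Rnf43 (NM_172448, chromosome 11, 87662722 to 87735539, plus strand) had 2.87 CPM in tumour 1, 0.677 in tumour 5, 0.707 in tumour 9 and 0.178 in tumour 10, a mean of 1.11 ± 1.20 CPM (SD, n = 4). Its order of tumours was that of Znrf3, with a wider range: tumour 1 exceeded tumour 10 by a ratio of 16.1 (7.22 to 44.4) for Rnf43 and 3.88 (3.45 to 4.38) for Znrf3.

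Notum, a secreted enzyme that strips the lipid from Wnt ligands (NM_175263, chromosome 11, 120653788 to 120661175, minus strand), was not lowest in tumour 10. It had 2.50 CPM in tumour 1, 0.490 in tumour 5, 0.707 in tumour 9 and 1.16 in tumour 10, from 143, 21, 38 and 39 counts. Tumour 10 was second in its order, above tumour 5 beyond counting error (ratio of tumour 5 to tumour 10 of 0.423, interval 0.236 to 0.737). Opposite-strand genes overlap exons of Notum in GENCODE M21, as they do for Axin2, Tbx3 and Glul, and reads of either strand cannot be told apart here. Same-strand genes overlap exons of Rhbg (Gm38392) and of Glul (the microRNA gene Mir8114, which has its own row).

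Lgr5, the R-spondin receptor that also marks stem cells of the gut (NM_010195, chromosome 10, 115450311 to 115587780, minus strand), was lowest where no read was counted, in tumour 10. It had 1.19 CPM in tumour 1, 0.350 in tumour 5 and 0.0558 in tumour 9, from 68, 15 and 3 counts. The floor of 3 counts in tumour 10 is 0.0892 CPM, and against it the level of tumour 1 was at least 13.3-fold higher. With the counting error of both tumours the lower 95% limit of this ratio was 10.5. Tumours 9 and 10 could not be separated, with a lower 95% limit of 0.259 for the ratio of tumour 9 to tumour 10. Tumour 1 also exceeded tumour 5 by a ratio of 3.39 (1.92 to 6.39). Unlike Axin2 and Nkd1, Lgr5 was higher in tumour 5 than in tumour 9, at a ratio of 6.27 (1.77 to 33.8). Its relative Lgr4, which binds the same ligands, was even across tumours, at 67.2, 78.6, 79.5 and 71.5 CPM in tumours 1, 5, 9 and 10, and Lgr6 had 3 counts in tumour 9 and none elsewhere.

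The transcription factors Sp5 and Tbx3 differed in level and pattern. Sp5, a zinc finger factor induced directly by beta-catenin (NM_022435, chromosome 2, 70474923 to 70477729, plus strand), had 9 counts in tumour 1, 1 in tumour 9 and 0 in tumours 5 and 10. These counts gave 0.157 CPM in tumour 1, with an interval of 0.0719 to 0.299, and 0.0186 CPM in tumour 9. Against the floors of tumours 5 and 10, the level of tumour 1 was at least 2.24-fold and 1.76-fold higher, and with the counting error of both tumours the lower 95% limits of these ratios were 1.48 and 1.16. The gene whose upstream window carries 2 TCF/LEF motifs was thus near the detection limit in all 4 tumours. Tbx3, a T-box repressor that is high in liver tumours with mutated beta-catenin (NM_011535, chromosome 5, 119670669 to 119684724, plus strand), had 4.39 CPM in each of tumours 1 and 5, 0.558 in tumour 9 and 0.862 in tumour 10. Tumours 1 and 5 did not differ beyond counting error (ratio 0.999, interval 0.824 to 1.21), nor did tumours 9 and 10 (0.648, 0.376 to 1.12), and tumour 1 exceeded tumour 9 by a ratio of 7.85 (5.37 to 11.9). Its relative Tbx2 had 5.71, 6.49, 6.92 and 2.77 CPM in tumours 1, 5, 9 and 10.

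Glul and Rhbg carry the ammonia-scavenging task of pericentral hepatocytes. Glul, glutamine synthetase, which joins ammonia to glutamate (NM_008131, chromosome 1, 153899944 to 153909723, plus strand), had 291 CPM in tumour 1, 161 in tumour 5, 247 in tumour 9 and 103.5 in tumour 10. Its range was the narrowest of the 10 genes, at a ratio of 2.81 (2.71 to 2.92) of tumour 1 to tumour 10. Rhbg, an ammonia channel of the same cells (NM_021375, chromosome 3, 88242874 to 88254709, minus strand), had 1.03 CPM in tumour 1, 0.304 in tumour 5, 0.0558 in tumour 9 and 0.416 in tumour 10, from 59, 13, 3 and 14 counts. The enzyme and the channel parted in tumour 9, where Glul was second highest and Rhbg lowest: the ratio of tumour 1 to tumour 9 was 1.18 (1.15 to 1.21) for Glul and 18.5 (6.02 to 92.1) for Rhbg. The related red cell channel gene Rhag peaked in tumour 9 at 11.7 CPM, with 0.105, 0.117 and 0.446 CPM in tumours 1, 5 and 10. The kidney relative Rhcg peaked in tumour 5 at 1.87 CPM, and its next value was 0.168 CPM in tumour 9.

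Variation between tumours exceeded counting noise for all members, as it did for most genes. Among genes with a mean of at least 1 CPM, the Poisson heterogeneity test (adjusted p of 0.05) called all 5 members that passed this filter, Tbx3, Notum, Znrf3, Rnf43 and Glul, and 98.7% of all 13129 genes. Notum and Rnf43 passed the filter through their level in tumour 1, since their mean over the other tumours was under 1 CPM. Without the filter the test called 10 of 10 members and 82.4% of 19162 genes, with the largest adjusted p for Sp5, at 0.0010.

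When each tumour was set against the remaining 3 with edgeR's quasi-likelihood method, no member was called after adjustment over all genes and tumours, nor was any other gene (0.0% of 13129 in each direction and tumour). The single tumour is assumed to vary as the rest do. Without adjustment, 94 genes in tumour 1 and 2904 in tumour 10 had a p under 0.05 in either direction. At an unadjusted p of 0.05, 2 of the 5 members tested were lower in tumour 10, where 8.23% of all genes were, and 0 of 5 were higher in tumour 1, where 0.427% of all genes were. Znrf3 had 9.46 CPM in tumour 10 against a mean of 31.1 CPM in the others, a log2 fold change of -1.72 ± 0.35 (SE; edgeR adjusted p = 0.28). Glul had 103.5 CPM in tumour 10 against a mean of 233 CPM, a log2 fold change of -1.17 ± 0.42 (SE; edgeR adjusted p = 0.61). The DESeq2 Wald test called 1 member, Znrf3 lower in tumour 10 (DESeq2 adjusted p = 0.0016), where it called 4.0% of all genes lower, and limma-voom called 0.

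**Figure D2:**
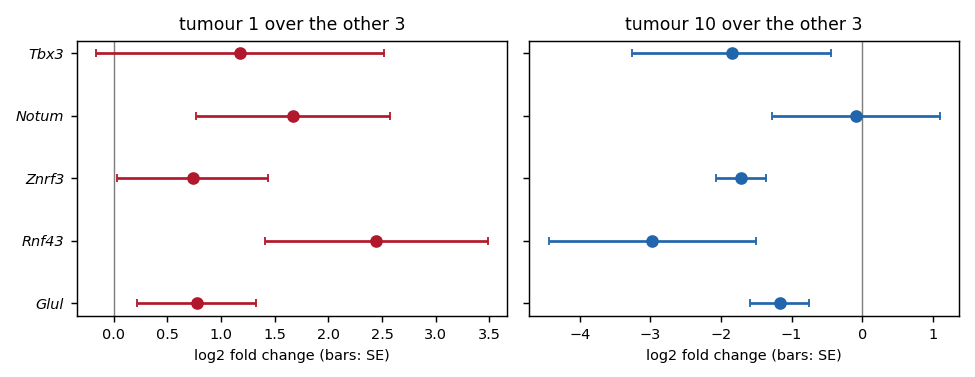
Log2 fold changes of the 5 members with a mean of at least 1 CPM in tumour 1 (left panel) and tumour 10 (right panel), each over the other 3 tumours, from edgeR's quasi-likelihood fit; bars are standard errors. Notum and Rnf43 passed the filter through tumour 1, so a point above 0 there describes that choice. For these 2 genes the same choice also raises the mean that tumour 10 is set against. All 5 points lie below 0 for tumour 10, with Znrf3 at -1.72 carrying the shortest bar. Notum lies at -0.09 there, with a standard error of 1.19.

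In tumour 1 the log2 fold changes of the 3 members that reach the filter without it were 1.18 ± 1.34 for Tbx3, 0.77 ± 0.56 for Glul and 0.73 ± 0.71 for Znrf3 (SE), each with an edgeR adjusted p of 0.98. Rnf43, at 2.45 ± 1.04 (SE; edgeR adjusted p = 0.76), and Notum, at 1.67 ± 0.90 (edgeR adjusted p = 0.92), were tested because of their level in tumour 1, so their folds are given as a description. With no filter on low counts, Axin2 had a log2 fold change of 3.31 in tumour 1 (edgeR adjusted p = 0.80), the 1 member of 10 under an unadjusted p of 0.05 in that direction, where 0.527% of all genes were. In tumour 10 the same fit put Lgr5 under an unadjusted p of 0.05 (edgeR adjusted p = 0.81) beside Znrf3 and Glul, 3 of 10 members, where 6.96% of all genes were lower.

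The ligands of the pericentral niche had the same leading tumour as the targets. Rspo3, the R-spondin of the central vein, had 1.82 CPM in tumour 1, 0.140 in tumour 5, 0.596 in tumour 9 and no count in tumour 10. Wnt9b, a ligand of central vein endothelium, had 1.15, 0.140, 0.316 and 0.178 CPM in tumours 1, 5, 9 and 10, and Wnt2, a ligand of sinusoidal endothelium, had 0.664, 0.0700, 0.0558 and 0 CPM. All 3 were highest in tumour 1 and stayed under a mean of 1 CPM. Of 19 Wnt ligand genes, 17 had a count and 4 were expressed. The numbers highest in tumours 1 and 5 were 6 and 7, against 22.3% and 20.9% of genes with any count. The most abundant was Wnt4, with 21.9 CPM in tumour 5 and 0.838 in tumour 9. At an unadjusted edgeR p of 0.05, 0 of the 4 expressed ligands were higher in tumour 1, 1 was lower in tumour 10 (Wnt16; 8.23% of all genes) and 1 was lower in tumour 9 (Wnt4; 1.9% of all genes). Of 5 R-spondins, 3 had a count and 0 were expressed. Wls and Porcn, which release and lipidate Wnt ligands, were both expressed, and neither was highest in tumour 1: Wls had 2.99, 2.97, 6.61 and 3.12 CPM and Porcn 2.81, 3.22, 3.41 and 3.54 CPM in tumours 1, 5, 9 and 10.

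Receptors were highest in different tumours, and intracellular components were mixed. Of 17 receptor genes, 10 were expressed. The numbers highest in tumours 1, 5 and 9 were 2, 6 and 8, against 22.3%, 20.9% and 27.3% of genes with any count. The number lowest in tumour 10 was 13, where 30.4% of genes with any count were. Fzd1, Fzd9 and Ryk were among the receptors lower in tumour 10 than over the other tumours, the first of them named after its values were seen. The co-receptor Lrp6 had 106, 87.1, 153 and 76.9 CPM in tumours 1, 5, 9 and 10, and the Wnt-binding receptor Ryk had 105, 109, 86.2 and 40.6 CPM. Beta-catenin itself (Ctnnb1) had 449, 475, 336 and 315 CPM, Apc 64.3, 64.3, 50.5 and 40.5 CPM, and Axin1 55.2, 69.8, 49.1 and 52.1 CPM. Of 17 secreted or surface antagonists, 5 were expressed. Of all 17, 1 was highest in tumour 1, 6 in tumour 5 and 6 in tumour 9. Sfrp4, a secreted Frizzled-related protein, had 2.76, 11.04, 0.0558 and 0.0892 CPM in tumours 1, 5, 9 and 10. Ctnnb1, Apc and Axin1 were thus of similar level in all 4 tumours. In the list of destruction complex and Dishevelled genes, 15 of 16 were expressed. Of the 16, 6 were highest in tumour 1 and 8 in tumour 5, against 22.3% and 20.9% of genes with any count. The number lowest in tumour 10 was 10, against 30.4%. Of the 14 genes of the nuclear list, described below, 4 were highest in tumour 1 and 7 lowest in tumour 10. The tests were made on the expressed genes of the destruction complex list. At an unadjusted edgeR p of 0.05, 2 of the 15 were lower in tumour 10, Tnks and Tnks2, and 1 was higher, Gsk3b (Tnks and Gsk3b named after their values were seen), in a tumour where 8.23% of all genes were lower and 13.9% higher.

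TCF and LEF factors, which carry beta-catenin to its targets, included 2 genes with low values in tumour 10; all but Tcf7 were named after their values were seen. Tcf7 had 0.238 CPM in tumour 10 against 3.04, 2.78 and 3.74 CPM in tumours 1, 5 and 9, a log2 fold change of -3.73 ± 0.89 (SE; edgeR adjusted p = 0.37). Tcf7l1 had 6.07 CPM in tumour 10 against 28.3, 20.1 and 36.0 CPM, a log2 fold change of -2.21 ± 0.48 (edgeR adjusted p = 0.31). Tcf7l2, the main hepatocyte factor, did not share this pattern, with 20.7 CPM in tumour 10 against 21.1, 18.7 and 27.2 CPM, and Lef1 was under 0.23 CPM in every tumour. Ctnnbip1, which blocks the binding of beta-catenin to TCF, had 19.0 CPM in tumour 10 against 73.5, 91.8 and 59.4 CPM (edgeR adjusted p = 0.24). Of the 12 expressed genes of the nuclear list, 3 were lower and 1 was higher in tumour 10 at an unadjusted p of 0.05, where 8.23% of all genes were lower and 13.9% higher.

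**Figure D3:**
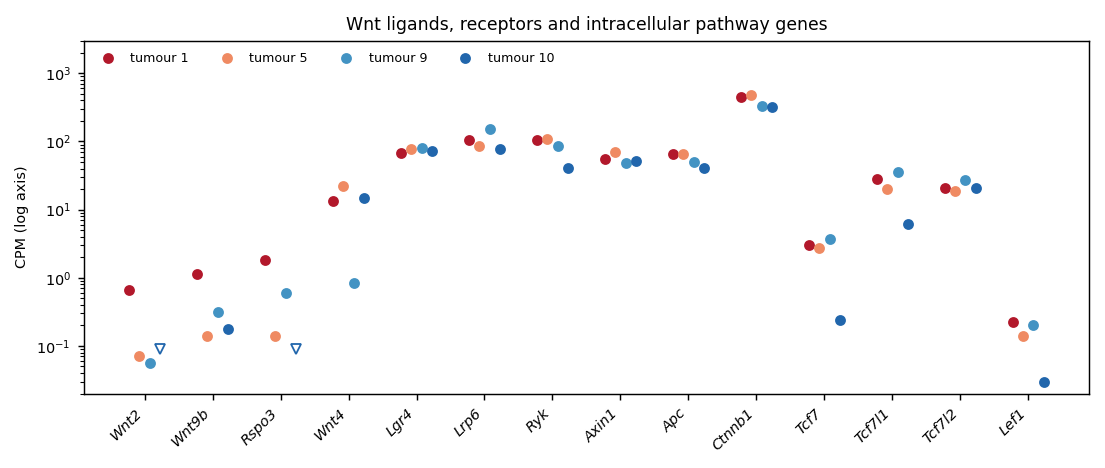
Levels of Wnt ligands, receptors and intracellular pathway genes in CPM (log axis), each point 1 library; open triangles mark the level of 3 counts where no read was counted. Wnt2, Wnt9b and Rspo3 are highest in tumour 1, Lgr4, Axin1 and Ctnnb1 are close together in all 4 tumours, and Tcf7 and Tcf7l1 are lowest in tumour 10.

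Other general Wnt targets were mixed. Of the 10 in this list, 2 were highest in tumour 1, Ascl2 and Lef1, both near the detection limit, and 6 were lowest in tumour 10, against 22.3% and 30.4% of all genes with any count. Ccnd1, the cyclin of the G1 phase, had 14.9 CPM in tumour 1, 72.0 in tumour 5, 4.0 in tumour 9 and 110 in tumour 10. Its highest values were in tumours 5 and 10, the tumours with the lowest Axin2, which Axin2 counts could not separate. Cd44, an adhesion receptor, had 28.6 CPM in tumour 9 and 8.29 to 9.57 CPM elsewhere. Prox1, a hepatocyte and lymphatic factor, had 26.3 CPM in tumour 10 against 46.2, 60.8 and 43.5 CPM in tumours 1, 5 and 9. Tnfrsf19, named after its values were seen, had 0.862 CPM in tumour 10 against 10.4, 16.6 and 6.37 CPM (edgeR adjusted p = 0.35).

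Pericentral genes outside the 10 members were highest either in tumour 1 or, for a smaller number, in tumour 10. Of 14 such genes, 9 were highest in tumour 1, against 21.4% of expressed genes, and 4 in tumour 10, against 35.8%. At an unadjusted edgeR p of 0.05, 5 of the 14 were higher in tumour 1, where 0.427% of all genes were: Cyp1a2, Slc1a2, Cyp2c29, Cyp2c50 and Gulo, named after their values were seen. None passed the adjustment. Cyp2c29 and Cyp2c50 passed the filter through tumour 1, with means of 0.749 and 0.763 CPM over the other tumours. Their place in both counts for tumour 1 therefore describes that choice. The cytochrome Cyp2e1 had 205 CPM in tumour 1 and 203 in tumour 10, against 12.4 in tumour 5 and 6.66 in tumour 9. The 4 highest in tumour 10 were Cyp2a5, Aldh1a1, Rgn and Cyp27a1, and 3 of the 14 were higher there at an unadjusted p of 0.05, where 13.9% of all genes were. Cyp2a5 had 207 CPM in tumour 10 and 52.2 in tumour 1, and Aldh1a1, a retinal dehydrogenase, had 482 CPM in tumour 10 and 75.6 in tumour 1. Rgn, a calcium-binding protein of hepatocytes, had 382 CPM in tumour 10 against 57.8 to 110 CPM elsewhere. These pericentral genes were highest in the tumour in which Znrf3, Rnf43 and Glul were lowest beyond counting error. Axin2 and Lgr5 were also lowest there, but not beyond counting error.

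Periportal genes were highest in tumour 10 for 12 of 14 genes, against 35.8% of expressed genes. Cps1, the entry enzyme of the urea cycle, had 3934 CPM in tumour 10 against 1015 to 1483 CPM in the others, and Arg1, its last enzyme, had 2284 CPM against 135 to 429 CPM. The exceptions were Cdh1 and Sox9, which were lowest in tumour 10 and were named after their values were seen. The median deviation of the periportal genes was 1.19 in tumour 10 and -0.50 in tumour 1, while that of the 10 Wnt targets was -1.14 in tumour 10 and 1.5 in tumour 1. For 10 general hepatocyte markers it was 1.09 in tumour 10 and -0.37 in tumour 1, so the high level in tumour 10 was not particular to periportal genes.

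**Figure D4:**
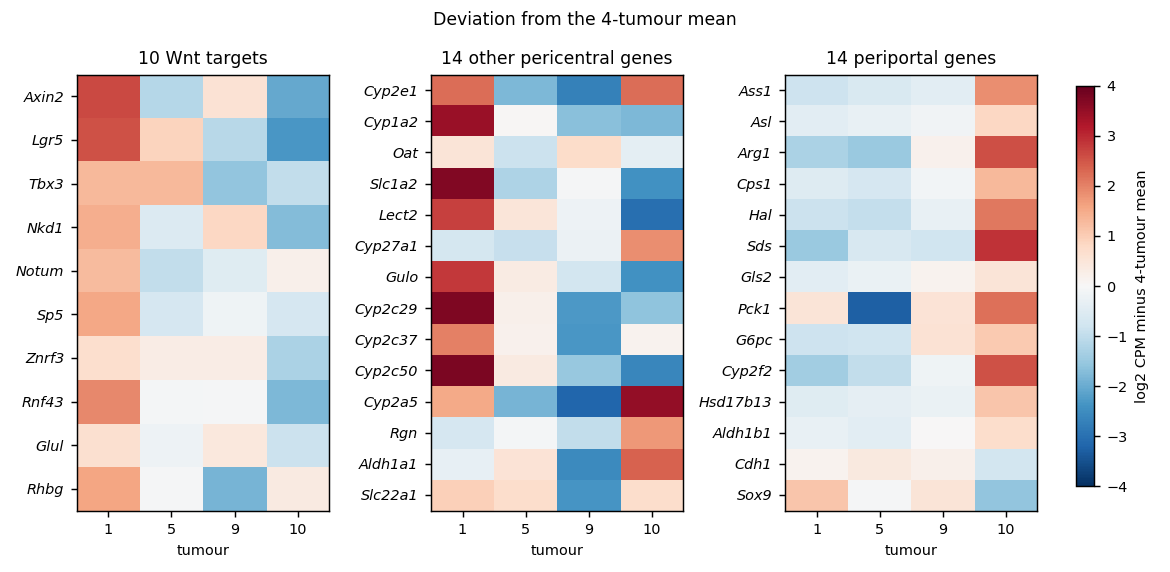
Deviation of log2 CPM from each gene's own 4-tumour mean for the 10 Wnt targets, 14 other pericentral genes and 14 periportal genes, in tumours 1, 5, 9 and 10 (red above and blue below the mean). The Wnt targets are red in tumour 1, 12 of 14 periportal genes are highest in tumour 10, and pericentral genes such as Cyp2e1 are red in both.

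Some markers of other liver cells were also highest in tumour 1, where 22.3% of genes with any count were. Their part in the result was not tested. Of 10 macrophage and Kupffer cell markers, 4 were highest in tumour 1, Clec4f, Vsig4, Marco and Timd4. The other 6 were highest in tumour 9, where 27.3% of genes with any count were. Among these 6 was Cd5l, the most abundant of the list, with 431 CPM in tumour 9 and 88.4 CPM in tumour 1. Clec4f had 20.7 CPM in tumour 1 against at most 2.99 CPM elsewhere, while the summed level of the list was 246 CPM in tumour 1, 181 in tumour 5, 807 in tumour 9 and 319 in tumour 10. Of 10 endothelial markers, 3 were highest in tumour 1, Lyve1, Clec4g and Oit3, near the share of all genes, and 7 in tumour 9. The summed levels of this list were 90.5, 87.3, 136 and 92.2 CPM in tumours 1, 5, 9 and 10. Of 10 stellate cell and fibroblast markers, 5 were highest in tumour 1. All 10 were lowest in tumour 10, where 30.4% of genes with any count were. They summed to 112 CPM there, against 425, 296 and 507 CPM in tumours 1, 5 and 9. Cholangiocyte markers were highest in tumour 5 for 4 of 8 genes, against 20.9% of genes with any count. They summed to 69.4, 105, 37.0 and 38.4 CPM in tumours 1, 5, 9 and 10. In these 4 lists no marker was at 0 in tumour 1, and Cftr had no count in tumour 10. Of 10 hepatocyte markers, 8 were highest in tumour 10 and 0 in tumour 1, against 35.8% and 21.4% of expressed genes. Kupffer, endothelial and stellate genes outside the naming rule were chosen after their values were seen.

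**Figure D5:**
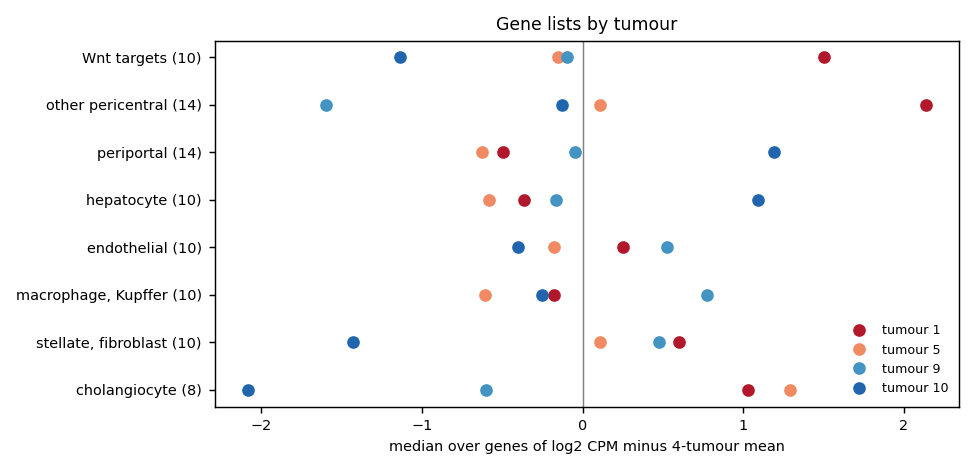
Median over the genes of each list of log2 CPM minus the gene's 4-tumour mean, with 1 point per tumour and the number of genes in brackets. The 10 Wnt targets lie at 1.5 in tumour 1 and -1.14 in tumour 10, the periportal and hepatocyte lists are highest in tumour 10, and the stellate and cholangiocyte lists are lowest there.

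The genes whose profile over the 4 tumours lay nearest to that of Axin2 were Pkp3, Tnfrsf11b, Dnase1l3, Spaca6 and Marco, among 13124 expressed genes other than members. Their distances were 0.490, 0.723, 0.734, 0.857 and 0.919 (Euclidean, on deviations of log2 CPM), against a median of 3.69 over all genes searched. Pkp3, a protein of desmosomes, had 5.63 CPM in tumour 1, 0.607 in tumour 5, 1.81 in tumour 9 and 0.268 in tumour 10. Pkp3, Tnfrsf11b and Dnase1l3 averaged under 1 CPM over tumours 5, 9 and 10 and passed the filter through tumour 1. Their place among the nearest genes therefore partly describes that choice. Marco, the scavenger receptor of Kupffer cells named above, had 8.67, 1.07, 2.68 and 0.208 CPM. The genes nearest to Glul were Zfp933, Slc35g2, Zmym1, Msantd2 and Pcolce, at distances of 0.0790 to 0.138 against a median of 1.42. With 4 tumours the ranking is a description.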

How the data were processed

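Poly-A RNA of 4 tumours was made into TruSeq RNA libraries, per the labels' protocols. The submitters' processing notes list FastQC 0.11.8 and the build GRCm38. Aligner, counter and strand setting: not given in the sources used here. The authors' deposited counts are whole reads per RefSeq transcript row, in 33984 rows. From the authors' deposited FPKM values transcript lengths were recovered, whole to a tolerance of 0.01 bases in 100% of rows with reads. The authors also deposited TPM values, left aside here. A gene with several rows is represented by the one with the highest mean count, so that reads are not counted repeatedly; Tbx3, Nkd1 and Znrf3 have a second row. Counts were scaled by TMM (edgeR 4.0.16, R 4.3.3), with a prior count of 2 on the log2 scale. Expressed genes are those averaging 1 CPM or more. A Poisson chi-square test of heterogeneity addressed counting noise, and single tumours were compared with the remaining 3 by edgeR's robust two-sided quasi-likelihood test, both with Benjamini-Hochberg adjustment at 0.05, the second over all genes and the 4 tumours together. Standard errors are the log2 fold change divided by the square root of the F statistic. Ratios between tumours carry exact 95% binomial intervals and levels exact Poisson intervals. DESeq2 1.42.0 and limma 3.58.1 were alternatives. The tests were also run on simulated data. The check that edgeR recovers a simulated fold was applied only where variation between libraries was smaller than in these data. It therefore does not show how the comparison of 1 tumour with 3 performs at the variation seen here. Gene positions are those of GENCODE M21. The members, lists and naming rule were chosen with earlier results of these data known. The rule took the members, Wnt2, Wnt9b, Rspo3, Lgr4, Ctnnb1, Apc, Axin1, relatives of members, Myc and Pmepa1, of each list the 3 expressed genes with the highest mean and the 1 with the largest SD, and the 5 genes nearest to Axin2 and to Glul. Adgre1 and Epb42 were found under the older symbols Emr1 and Epb4.2. Lists of erythroid, neutrophil and T cell markers were also summed: tumour 9 held 790 CPM of erythroid, 535 CPM of neutrophil and 4.71 CPM of T cell markers, against at most 116, 23.4 and 3.54 CPM elsewhere.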

Additional observations from a re-analysis of the deposited data

Results flagged for a closer look

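Of 25 genes examined for a tumour lying far from the others on the log2 CPM scale, 2 stood out, both relatives of members near the detection limit. Lgr6 had 3 counts in tumour 9 and none in the others, so that the gap of the highest tumour took the whole range (gap over range 1). Sp8 had a count in tumour 5 alone, with the same gap over range of 1. The limit used marks about 1 of 20 groups of continuous values by chance. A gene counted in 1 tumour alone always has a gap over range of 1, so that rate does not apply to these 2 genes. No member of the 10 Wnt targets was marked in this way.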

How the results depend on the processing

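The number of members highest in tumour 1 was 9 with TMM and was 9 to 10 when a tumour was left out, and the number lowest in tumour 10 was 6 and became 6 to 7; DESeq2 size factors, total counts and the sum over rows moved neither by more than 1.5 times. Counts for the pericentral, periportal and ligand lists were also stable to that degree. Members beyond counting noise numbered 5, 10 with no filter on low counts (more genes tested), and 3 to 6 over the tumours left out, with 3 without tumour 1, when Notum and Rnf43 no longer passed the filter. The mean log2 CPM of Sp5 was -5.19 with a prior count of 0.5; the other members' means moved by less than their SD. Genes called in 1 tumour against the other 3, 0 in each tumour, became 230 in tumour 10 when adjusted over that tumour alone. With no filter they were 2, 6 and 123 in tumours 1, 9 and 10, and by the DESeq2 Wald test 29, 45, 318 and 1357 in tumours 1, 5, 9 and 10. Leaving out tumours gave 0 to 2, 0 to 1, 0 to 28 and 0 to 414 genes in tumours 1, 5, 9 and 10, with the largest count in tumour 10 when tumour 9 was left out and in tumour 9 when tumour 10 was left out. Members called were 0 except 1 in tumour 10 by DESeq2, Znrf3. The log2 fold change of Notum in tumour 10 turned to 0.21 with limma-voom. The cause of these changes was not tested unless named. Scaling by library totals without TMM shifts the typical gene by 0.14, 0.04, 0.13 and -0.32 in tumours 1, 5, 9 and 10, and all changes are relative to TMM. Depth limits statements on Sp5, Lgr5, Axin2 and Rhbg, which had 3 counts or fewer in at least 1 tumour. No paired analysis was possible because there is 1 group and its replicate numbers pair no samples.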
